A study of Rattus norvegicus with 12 samples.

Results

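T cells of the CD4+ class with a receptor for myelin basic protein were compared between the cerebrospinal fluid (CSF) and the blood of rats with experimental autoimmune encephalomyelitis, using the 3 libraries titled CSF 1 to 3 and the 3 titled blood 1 to 3. These 6 were chosen by title from the 12 libraries of the series, which also holds 3 of spinal cord meninges and 3 of CNS parenchyma. Every library came from Lewis rats of wild type genotype, and the sorted cells carried green fluorescent protein and were collected by flow cytometry in the cold. The labels give no age, sex or disease stage, and they do not say whether numbered libraries came from separate or pooled animals, so p-values rest on the variation among these libraries alone, part of which can be technical.

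Experimental autoimmune encephalomyelitis is an inflammation of the brain and spinal cord driven by T cells that recognise myelin, and it is widely used as an animal model of multiple sclerosis. Myelin basic protein is a protein of the myelin sheath. In this disease activated T cells leave the blood, pass the vessel walls of the leptomeninges and move along and within the coverings of the spinal cord. The CSF fills the space between these coverings, so T cells found in it have left the blood without being within the nervous tissue itself. The comparison asks what differs in the RNA of such cells once they are in the fluid.

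Total gene counts were 13267031 to 17438057 in blood and 14279851 to 22056664 in CSF. Genes at 1 CPM or more (CPM is a gene's count after scaling every library to one common total) numbered 10520 to 10736 in blood and 10429 to 10494 in CSF. Blood library 3 stood apart in that 65.2% of its entries were listed as aligned to several places, against 36.5% to 41.5% in the other 5 libraries. Among the meninges libraries, read further below, library 2 had 61.4% of such entries, against 43.7% and 43.9% in libraries 1 and 3. Genes are known here only by Ensembl identifier, since 0 of 26405 identifiers matched a name in the reference table. Markers of CD4+ T cells or of other cells that a sort can hold could therefore not be checked, and results are described by the size and the abundance of the change. In sorted bulk samples, fewer cells of a type and less RNA per cell cannot be told apart.

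Many genes differed by little between blood and CSF, and fewer differed by much. No cells were followed from blood into CSF, so changes here are differences between compartments. Of 11498 genes tested, 4310 (37.5%) differed at an adjusted p under 0.05 (edgeR quasi-likelihood test with Benjamini-Hochberg adjustment), 2010 (17.5%) higher in CSF and 2300 (20%) lower. Changes under 1.5-fold made up 55.6% of the genes called higher and 51.4% of those called lower. The median fold was 1.44 among the genes higher and 1.48 among those lower. By estimated fold, 1075 of the genes called (9.35% of those tested) differed more than 2-fold, 412 higher and 663 lower. More than 4-fold differences were estimated for 102 higher and 131 lower, and more than 8-fold differences for 29 higher and 41 lower. The calls test for any change, not for a change beyond these folds.

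**Figure D1:**
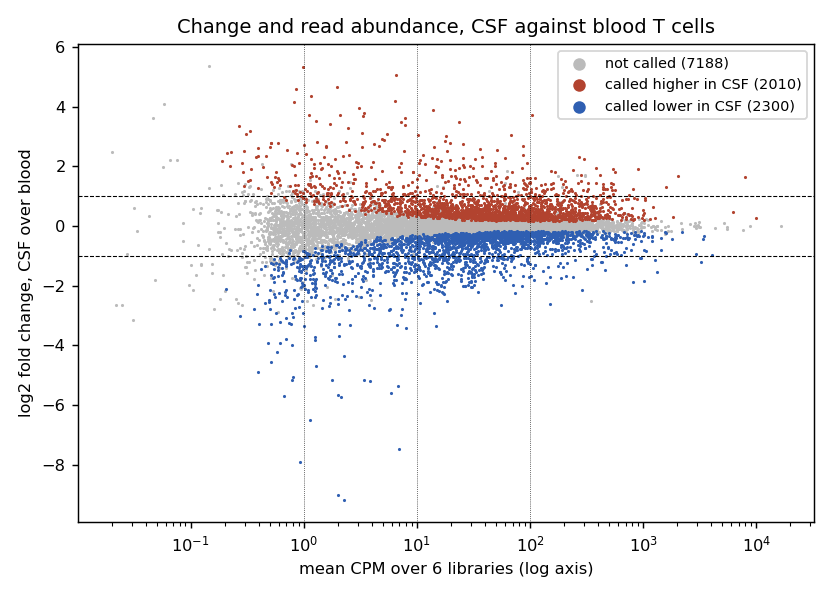
Each point is 1 of 11498 genes tested, at its mean CPM over the 6 libraries (log axis) and its log2 fold change of CSF over blood; dashed lines mark 2-fold and dotted lines the abundance classes at 1, 10 and 100 CPM. The 2010 genes called higher and 2300 called lower lie mostly close to the centre line where abundance is high, and the largest folds lie at low abundance.

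The direction of change differed with abundance. Abundance here is the mean CPM over the 6 libraries, a read abundance that is not divided by gene length and that sets how precisely a gene is measured. At 100 CPM and over, 574 of 2339 genes were called higher in CSF (24.5%) and 446 lower (19.1%). Between 10 and 100 CPM, 1057 of 5723 genes were called higher and 1232 lower. Between 1 and 10 CPM the numbers were 319 higher and 510 lower of 2554, and under 1 CPM 60 higher and 112 lower of 882. Genes higher in CSF thus made up 56.3% of the calls in the most abundant class, and 46.2%, 38.5% and 34.9% in the classes below it. No test was made of this difference between classes.

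The split by abundance was wider among large changes. Of the genes at 100 CPM and over that differed more than 2-fold, 76 were higher in CSF and 35 lower. Between 10 and 100 CPM 136 were higher and 247 lower, between 1 and 10 CPM 146 and 272, and under 1 CPM 54 and 109. Over all calls, of any size, the share that were higher ran under 17 alternative settings from 51.4% to 64.1% at 100 CPM and over. It ran from 33.5% to 42.3% between 1 and 10 CPM and from 25.9% to 39.5% under 1 CPM. Between 10 and 100 CPM it ran from 36.0% to 53.2%, so the direction with more of all calls there depends on the setting. Over all genes it ran from 39.4% to 50.8%, and with DESeq2 it was 50.3%. Among calls more than 2-fold different the share was 63.8% to 76.8% at 100 CPM and over. Between 10 and 100 CPM that share was 32.6% to 41.2%, so genes lower were more numerous under every setting. It was 32.2% to 37.5% between 1 and 10 CPM and 24.2% to 39.7% under 1 CPM.

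**Figure D2:**
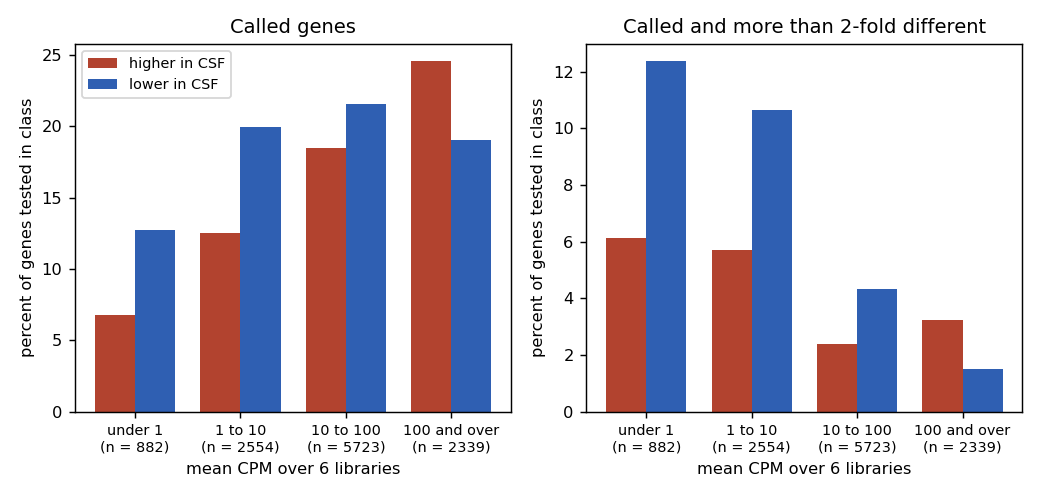
Bars give the percent of the genes tested in each class of mean CPM that were called higher (red) or lower (blue) in CSF, for all calls on the left and for calls with more than a 2-fold difference on the right; n is the number of genes tested. Genes lower in CSF outnumber those higher in the 3 lower classes in both panels, and the order turns at 100 CPM and over, where 24.5% were called higher and 19.1% lower.

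Precision also rose with abundance. The median standard error of the log2 fold change was 0.45 under 1 CPM, 0.23 between 1 and 10 CPM, 0.10 between 10 and 100 CPM and 0.08 at 100 CPM and over. The smallest fold called was 1.76 in the first of these classes and 1.12 in the last, so small changes of rare transcripts were not detectable at this depth. Among genes called, the median fold in the class under 1 CPM was 3.22 for those higher and 3.39 for those lower, against 1.36 and 1.30 at 100 CPM and over. A test for a change beyond 1.5-fold, which asks for the same size in every class, called 930 genes (8.09%). It called 7.60% of the genes under 1 CPM, 10.9% between 1 and 10 CPM, 7.34% between 10 and 100 CPM and 7.05% at 100 CPM and over. Precision still differed between classes in this test, so these shares do not compare how common such changes were.

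Measured in reads, the difference was spread over many genes. Between the mean profiles of blood and CSF, 10.8% of gene counts moved from one set of genes to another. Between single libraries this share was 9.78% to 14.2% for the 9 pairs of a blood with a CSF library, 3.26% to 5.17% between blood libraries and 2.42% to 7.19% between CSF libraries. The ranges between and within compartments did not overlap. The 10 genes that gained most held 17.1% of the gain and the 100 that gained most 40.9%. The 10 and 100 genes that lost most held 13.4% and 38.4% of the loss. Genes called higher more than 2-fold held 33.1% of the gain, and genes called lower more than 2-fold held 21.4% of the loss.

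Among genes that were over 2-fold higher in CSF, the most abundant by mean CPM over the 6 libraries stood at 2684, 6287 and 2400 CPM in blood libraries 1, 2 and 3 and at 10521, 14331 and 11023 CPM in CSF libraries 1, 2 and 3. All CSF libraries lay above all blood libraries, but blood library 2 stood well above the other blood libraries. Its log2 fold change was 1.66 (SE 0.31, adjusted p = 0.000981, edgeR). The next in rank had 590, 1682 and 629 CPM in blood and 2480, 3834 and 2929 CPM in CSF, again with blood library 2 the highest of its group. For the first gene the ratio of CSF to blood was 3.92, 2.28 and 4.59 within the numbers 1, 2 and 3, and for the second 4.20, 2.28 and 4.66. The fourth in rank was even within groups, at 387, 388 and 363 CPM in blood and 1441, 1297 and 1519 CPM in CSF (log2 fold change 1.90, SE 0.10, adjusted p = 5.81e-08, edgeR).

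The most abundant gene more than 2-fold lower in CSF had 4675, 4256 and 4580 CPM in blood and 2044, 1841 and 1909 CPM in CSF. Its 2 groups were each narrow and far apart, with a log2 fold change of -1.22 (SE 0.08, adjusted p = 3.05e-07, edgeR). The second in rank had 1433, 1204 and 3307 CPM in blood and 551, 714 and 759 CPM in CSF, so that blood library 3, the library with most entries aligned to several places, held the highest level. The part of that library's composition in this value was not tested. The fourth had 1386, 1611 and 1720 CPM in blood and 335, 662 and 329 CPM in CSF, with CSF library 2 above the other CSF libraries.

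A clear level in 1 compartment with near absence in the other was rare among the genes called. Only 1 gene called higher stood under 0.5 CPM in blood and at 10 CPM or more in CSF. The reverse held for 3 genes called lower. At lower levels, 4 genes called higher stood under 0.1 CPM in blood and at 1 CPM or more in CSF. The reverse held for 17 called lower. No gene called higher was at 0 counts in all 3 blood libraries. Of the genes called lower, 3 had 0 counts in all 3 CSF libraries, and the highest blood mean among them was 4.57 CPM. Most of the largest folds rested on low levels. The median level of the 29 genes more than 8-fold higher was 0.450 CPM in blood and 5.91 CPM in CSF, and that of the 41 genes more than 8-fold lower was 2.26 CPM in blood and 0.0919 CPM in CSF. Of the genes more than 4-fold different, 42 of the 102 higher reached 10 CPM in CSF and 36 of the 131 lower reached 10 CPM in blood.

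Eligible for printing were genes called with at least 10 CPM in the higher group and groups that did not overlap. The 4 printed by identifier had the 2 largest log2 fold changes in each direction among them. ENSRNOG00000036942 had 0.565, 0.229 and 0.294 CPM in blood libraries 1, 2 and 3 and 14.9, 8.38 and 14.9 CPM in CSF libraries 1, 2 and 3. Every CSF library was far above every blood library, with CSF library 2 the lowest of its group. Its log2 fold change was 5.07 (SE 0.35, adjusted p = 3.39e-07, edgeR). From summed counts, 18 in blood and 710 in CSF, the ratio was 33.5 with an exact 95% binomial interval of 21.0 to 56.8. Such intervals cover only counting error of reads pooled over 3 libraries, not variation between libraries. The reads have no molecular identifiers, so repeat copies of a molecule also count as separate reads. ENSRNOG00000036942 did not peak in the fluid. It stood at 66.4 ± 4.52 CPM (SD, n = 3) in meninges and 177 ± 30.1 CPM in parenchyma, against 12.7 ± 3.76 CPM in CSF. It was higher than in CSF by 2.39 in meninges (adjusted p = 1.69e-05) and by 3.81 in parenchyma (adjusted p = 5.53e-08) on the log2 scale. These 2 comparisons share the CSF libraries, and called 2.51% and 32.7% of the genes tested.

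ENSRNOG00000019894 had 0.735, 0.686 and 0.515 CPM in the blood libraries and 13.9, 9.49 and 12.7 CPM in the CSF libraries. The groups lay far apart, and CSF library 2 was again the lowest of its group. Its log2 fold change was 4.19 (SE 0.25, adjusted p = 1.03e-07, edgeR), and the ratio of summed counts, 680 in CSF against 32 in blood, was 18.0 with an interval of 12.7 to 26.6. Further levels were 24.3 ± 4.88 CPM (SD, n = 3) in meninges and 32.7 ± 2.25 CPM in parenchyma. The gene was higher than in CSF by 1.01 in meninges (adjusted p = 0.00368) and by 1.44 in parenchyma (adjusted p = 2.24e-05) on the log2 scale.

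ENSRNOG00000028015 had the largest fall under this rule. It stood at 19.3, 9.32 and 13.0 CPM in the blood libraries and had 2, 1 and 1 counts in the CSF libraries, where 3 counts correspond to 0.136 to 0.210 CPM. All blood libraries held the transcript and each CSF library was below that floor. From summed counts, 682 in blood and 4 in CSF, the ratio was 201 with an interval of 78.1 to 739, and its log2 fold change was -7.47 (SE 0.45, adjusted p = 1.11e-07, edgeR). The level was also low in the tissues, at 0.161 ± 0.0989 CPM (SD, n = 3) in meninges and 0.130 ± 0.117 CPM in parenchyma. Differences from CSF had an adjusted p of 0.669 for meninges and 0.586 for parenchyma, at levels where 6 counts in each of these groups leave little precision.

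ENSRNOG00000049424 stood at 18.7, 8.12 and 7.58 CPM in the blood libraries and 0.135, 0.351 and 0.211 CPM in the CSF libraries. Blood library 1 was more than double the other blood libraries. Its log2 fold change was -5.59 (SE 0.64, adjusted p = 2.12e-05, edgeR), and -5.04 without blood library 1. Unlike the former gene it was higher in meninges than in CSF, at 1.48, 1.93 and 6.05 CPM in meninges libraries 1, 2 and 3, a log2 difference of 3.78 (SE 0.72, adjusted p = 0.0134), with library 3 well above the other 2. Parenchyma held 3 counts in all 3 libraries together (difference from CSF, adjusted p = 0.404).

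**Figure D3:**
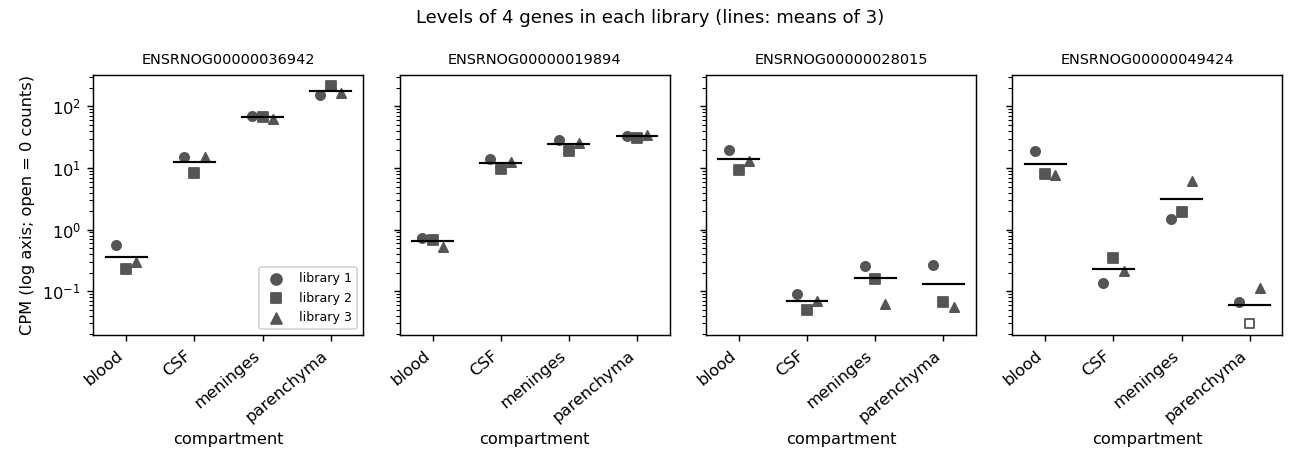
Each marker is the CPM of 1 library (log axis, marker shape by library number). The 4 genes had the 2 largest changes in each direction under the rule. Lines are means of 3 libraries, and an open marker stands for 0 counts, drawn at the foot of the axis. The 2 genes higher in CSF than in blood are higher still in meninges and parenchyma. ENSRNOG00000028015 is near its floor in CSF, meninges and parenchyma alike, while ENSRNOG00000049424 is higher in meninges than in CSF.

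The groups of genes with the largest changes were also read in meninges and parenchyma, as a description with no test. Libraries of those compartments entered the filter, the scaling and the estimate of spread, so the groups were chosen a second time from the blood and CSF libraries alone. Both choices still use the CSF values. The choice itself can therefore make CSF sums too low for genes lower and too high for genes higher. The 102 genes called over 4-fold higher in CSF summed to 543, 619 and 557 CPM in blood libraries 1, 2 and 3 and to 3219, 2982 and 3271 CPM in CSF libraries 1, 2 and 3. Their sum was 4374 ± 339 CPM (SD, n = 3) in meninges and 6735 ± 299 CPM in parenchyma. The 131 genes more than 4-fold lower in CSF summed to 2201, 1879 and 2227 CPM in blood and to 394, 402 and 443 CPM in CSF. Their median level was 3.62, 1.77 and 3.82 CPM in blood libraries 1, 2 and 3, lowest in library 2. In meninges their sum was 570 ± 61.9 CPM and in parenchyma 418 ± 45.7 CPM. For the 102 genes each meninges and parenchyma library lay above the CSF libraries. For the 131 genes the meninges libraries, at 499 to 612 CPM, lay above the CSF range, and the parenchyma libraries, at 374 to 466 CPM, overlapped it. By the median level of the 131 genes the parenchyma libraries, at 0.662 to 0.790 CPM, all lay above the CSF libraries, at 0.315 to 0.422 CPM. The meninges libraries stood at 0.783 to 0.883 CPM. Chosen from the 6 libraries alone, 94 genes were more than 4-fold higher and summed to 585 ± 41.2 CPM (SD, n = 3) in blood and 3201 ± 155 CPM in CSF. Their sums were 4454 ± 348 CPM in meninges and 6917 ± 331 CPM in parenchyma. Of 104 genes more than 4-fold lower by that choice, 101 also passed the filter on all 12 libraries. These 101 genes summed to 1779 ± 125 CPM in blood and 337 ± 18.3 CPM in CSF. In meninges they stood at 468 ± 48.9 CPM and in parenchyma at 327 ± 22.6 CPM. The median levels of these 101 genes overlapped, at 0.402 to 0.563 CPM in CSF libraries and 0.541 to 0.733 CPM in parenchyma libraries.

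By summed CPM, which weighs abundant genes most, the order of CSF and meninges was not the same in the wider group. The 412 genes more than 2-fold higher summed to 57199 ± 4146 CPM (SD, n = 3) in CSF, 53070 ± 3567 CPM in meninges and 67142 ± 6395 CPM in parenchyma, against 20876 ± 6036 CPM in blood. The ranges of CSF, at 53608 to 61737 CPM, and of meninges, at 50944 to 57189 CPM, overlapped, and each parenchyma library lay above both. By the median level of these 412 genes the meninges libraries, at 21.1 to 22.8 CPM, all lay above the CSF libraries, at 16.1 to 17.3 CPM. In blood, library 2 held 27843 CPM of these genes and the other libraries 17243 and 17541 CPM. The median level of the 1118 genes higher by under 1.5-fold was 53.0 CPM in blood, against 68.4 CPM in CSF, 65.5 CPM in meninges and 65.8 CPM in parenchyma.

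**Figure D4:**
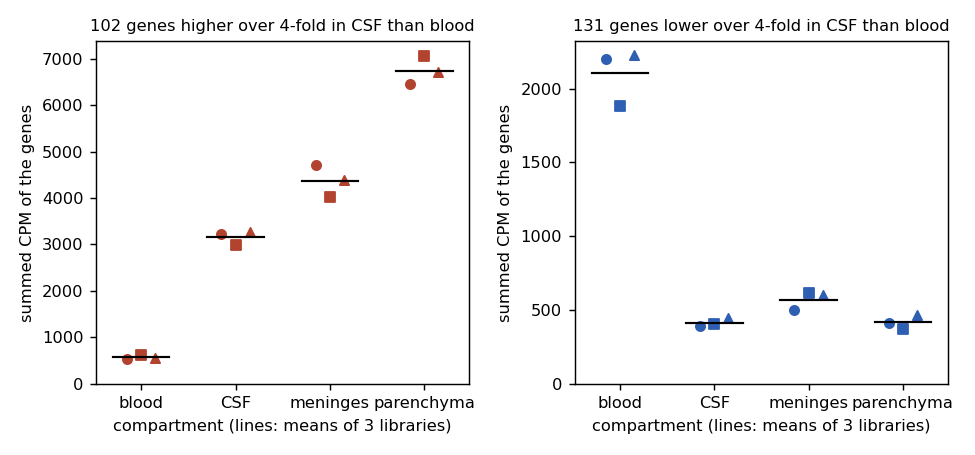
Markers give the summed CPM, in each of 12 libraries, of the 102 genes called more than 4-fold higher (left) and the 131 called more than 4-fold lower (right) in CSF than in blood, and lines are means of 3 libraries. Blood and CSF differ by the choice of genes; the meninges and parenchyma sums of the genes higher lie above all CSF sums, and those of the genes lower stay between 374 and 612 CPM, against 1879 to 2227 CPM in blood.

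Libraries of the same number were then treated as pairs. Deviations from the group means correlated at 0.339, 0.280 and 0.149 between the blood and CSF libraries numbered 1, 2 and 3, and at -0.287 to 0.0462 between libraries of different numbers, across 11498 genes that are not independent. Deviations cancel out within a group for each gene, so positive correlations for same numbers must come with negative ones for different numbers. The correlations are therefore not independent of one another. Differences of CSF minus blood within a number, on the log2 CPM scale, correlated across genes at 0.781 for pairs 1 and 2, 0.842 for pairs 1 and 3 and 0.700 for pairs 2 and 3. Of the 4310 genes called, 4285 moved the same way in all 3 pairs, against 7648 of all genes tested (66.5%). These counts come from the libraries on which the calls were made. Pair 2 had the smallest rise among the 412 genes more than 2-fold higher, with a median log2 difference of 1.26 against 1.52 in pair 1 and 1.56 in pair 3. Among the 663 genes more than 2-fold lower the medians were -1.36, -1.42 and -1.38 in pairs 1, 2 and 3.

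**Figure D5:**
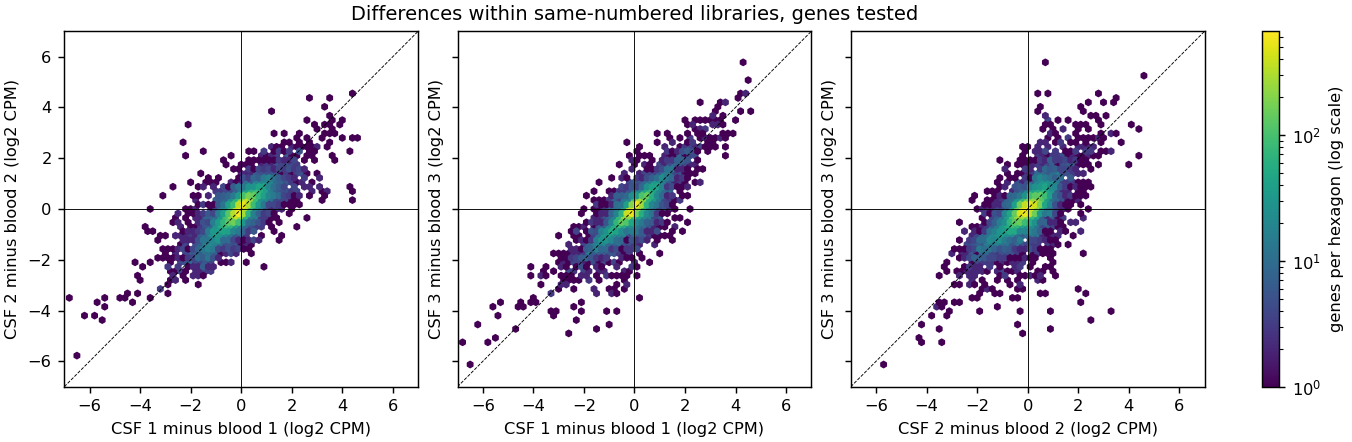
Each panel sets the log2 CPM difference of CSF minus blood in 1 same-numbered pair of libraries against that in another, for 11498 genes tested; colour gives the number of genes per hexagon on a log scale, and the dashed line marks equal differences. Genes lie along the dashed line in each panel, most closely for pairs 1 and 3 (Pearson's r 0.842 across genes).

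Calls, with their filter and scaling, were also made without 1 pair and then read in that pair. Without pair 1, 1249 of 1253 genes called higher and 1433 of 1440 called lower went the same way in pair 1. Without pair 2 the numbers were 1620 of 1686 and 1865 of 1965, and without pair 3 1361 of 1413 and 1561 of 1579. Of all genes tested, 46.9% to 48.8% were higher and 51.1% to 53.1% lower in the pair left out. Among genes called higher by more than 2-fold, the median log2 fold change was 1.53, 1.58 and 1.51 without pair 1, 2 or 3, and the left-out pair gave 1.49, 1.06 and 1.44. For genes called lower by more than 2-fold the medians were -1.50, -1.50 and -1.51 in the fits and -1.33, -1.34 and -1.34 in the left-out pairs. The rises were thus smallest in pair 2 when it had no part in choosing the genes. Pair values carry a larger prior count than the fits, which pulls folds of rare transcripts towards 0.

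Whether CSF or blood libraries varied more depended on the measure. The median over genes of the SD of log2 CPM was 0.14 in CSF and 0.11 in blood, and the SD was the larger one in blood for 40.6% of genes. At 100 CPM and over the medians were 0.10 and 0.07, and under 1 CPM 0.40 and 0.41. Root mean squared differences over all genes tested, which weigh genes with wide spread more, instead ran higher in blood, though the ranges overlapped. They were 0.35 to 0.45 log2 units between blood libraries and 0.28 to 0.40 between CSF libraries. Between CSF libraries 1 and 3 this difference was 0.28 log2 units, against 0.38 and 0.40 for CSF library 2 with either. Blood library 2 likewise lay farther from blood libraries 1 and 3 (0.39 and 0.45) than these from each other (0.35). The libraries numbered 2 thus lay apart from the others in both compartments, and the source of this was not tested.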

How the data were processed

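RNA of sorted T cells was sequenced as messenger RNA libraries (Illumina TruSeq, per the labels' protocols). The authors deposited whole-number read counts per Ensembl gene, not normalized, 1 file per library with 26405 identifiers. Tools listed in the submitters' processing notes, with no role for any, are STAR, HTSeq, SAMtools, DESeq2 and CASAVA 1.8.2. Build, annotation and strand setting: not given in the sources used here. Reads aligned to several places are not in the gene counts, which lowers the counts of genes that have near-identical copies, and reads of overlapping antisense genes may be mixed. The 5 summary lines were left out of library sizes and tests. They held 15.5% to 20.7% of entries as outside genes and 36.5% to 65.2% as aligned to several places in the 6 libraries.

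Groups and library numbers come from the titles. The tests used edgeR 4.0.16 (R 4.3.3). The filter filterByExpr left 11498 genes, which held 99.9% of gene counts in blood library 3 and more in the other 5 libraries. All 12 libraries, with scaling by TMM (trimmed mean of M values), entered 1 quasi-likelihood fit with compartment as the only term, and CSF minus blood was a two-sided contrast. A gene was called at an adjusted p under 0.05 (Benjamini-Hochberg over all genes tested). Levels are CPM on TMM-scaled library sizes, and shares of reads use unscaled totals. Pair differences use log2 CPM with a prior count of 2. Standard errors come from the F statistic. DESeq2 1.42.0 served as an alternative. The code was tested on simulated data.

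Same-numbered libraries were taken as pairs because all 3 correlations of their deviations passed 0.1. The labels do not state a pairing. Replicates of a group differed by more than counting noise, with a mean chi-square per degree of freedom between 3.62 and 31.2. The planned rule for named genes and 41 gene lists (536 symbols) need gene names and were not used. The planned fallback of 4 identifiers was used. Class boundaries, lists and the comparison itself were chosen with earlier results of these data known. The 8-fold class, the leaving out of pairs, the choice of gene groups from 6 libraries and the values by rank of abundance were added after the files had been read.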

Additional observations from a re-analysis of the deposited data

How the results depend on the processing

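The count of genes differing between CSF and blood stayed within 1.5 times of 4310 with DESeq2 (4238), library size scaling (4319), no filter (4394), the 6 libraries alone (3978) and the replicate block that treats library numbers as pairs (5423, and 4741 with the 6 libraries alone). All 4310 genes were among the 5423. With DESeq2 4042 of them were called in the same direction, and with no filter 3747. Leaving out 1 library gave 3274 (blood library 1) to 4057 genes, with 1494 to 1929 higher and 1780 to 2128 lower, and 927 to 1266 genes more than 2-fold different. At an adjusted p under 0.01 the count was 2725, with 1238 higher and 1487 lower, and beyond 1.5-fold it was 930, with 366 higher and 564 lower, as stricter thresholds must give fewer. Without both libraries numbered 1 it was 2693, with 1253 higher and 1440 lower, on fewer libraries. The 4 genes printed by identifier were called in the same direction under all 17 alternatives. Their log2 fold changes ran from 4.81 to 5.58 for ENSRNOG00000036942, the latter without blood library 1, from 4.04 to 4.38 for ENSRNOG00000019894, from -7.70 to -7.14 for ENSRNOG00000028015 and from -6.25 to -4.71 for ENSRNOG00000049424, the last without both libraries numbered 1. The median log2 fold change of all genes was -0.02 with TMM, -0.05 with library size and -0.01 with DESeq2. Depth limits what is said of genes under 1 CPM, where 3 counts correspond to 0.136 to 0.226 CPM in a library.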
